A study of Mus musculus with 18 samples.

Results

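The isoforms of the enzymes that burn glucose and store glycogen were described in muscle, brown fat and white fat of mice, as 33 genes out of 53465 with a row in the deposited count files. The genes were taken by name, by mapping each Ensembl identifier to its mouse symbol, and all 33 were found. They cover hexokinase (Hk1, Hk2, Hk3), glucose-6-phosphate isomerase (Gpi1), phosphofructokinase (Pfkm, Pfkl, Pfkp), aldolase (Aldoa, Aldoc), the single genes Tpi1, Gapdh and Pgk1, phosphoglycerate mutase (Pgam1, Pgam2), enolase (Eno1, Eno2, Eno3), pyruvate kinase (Pkm) and lactate dehydrogenase (Ldha, Ldhb). They also cover the regulators Pfkfb1 to Pfkfb4 and, for glycogen, the phosphorylases Pygm, Pygl and Pygb, the synthases Gys1 and Gys2, the branching enzyme Gbe1, the primer protein Gyg and the phosphorylase kinase subunits Phka1 and Phkg1. The libraries were made from wild-type C57BL/6J mice. In each tissue 3 libraries came from the quercetin arm, in which this plant flavonol was gavaged at 0.125 mg/kg in 100 µL of PBS holding 10% PEG400, and 3 from the vehicle arm, given PBS with 10% PEG400 and no quercetin. This made 6 groups and 18 libraries, and both arms carried the PEG400. The sources used here do not say how old the sequenced animals were, their sex, how long they were treated, which muscle was taken or which depot the white fat came from.

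Glycolysis cuts glucose into pyruvate, and several of its steps can be run by isoenzymes, which are products of separate genes that catalyse the same reaction. Phosphofructokinase is the main control point, and the PFKFB enzymes make and remove fructose 2,6-bisphosphate, the metabolite that switches it on. Glycogen is a branched store of glucose that glycogen synthase lengthens and glycogen phosphorylase cuts, the second of these being switched on by phosphorylase kinase. Skeletal muscle is known for muscle-type forms of many of these enzymes and for a large glycogen store, and brown fat is known for a high uptake of glucose.

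Each library held 8436308 to 12311345 counts in genes. Levels are given as CPM, a library's reads for a gene scaled to a common library size (TMM over the 18 libraries), and a level set beside that of another gene is CPM per kilobase of annotated exon. The 8 skeletal muscle markers summed to 73326.5 to 136108 CPM in muscle, 5.87 to 33219 CPM in brown fat and 14.3 to 1160.3 CPM in white fat, and all 8 had counts in each tissue. Ucp1, the uncoupling protein of brown adipocytes, lay between 894 and 4745 CPM in brown fat. 4 libraries stood apart by transcripts of another tissue, though the remaining libraries were not free of such transcripts. Brown fat quercetin 3 held the 33219 CPM of muscle markers and the 894 CPM of Ucp1, against at most 5710.3 CPM of muscle markers and at least 3735 CPM of Ucp1 in the other 5. Brown fat vehicle 1, which held the 5710.3 CPM, was not counted among the 4. White fat vehicle 2 held the 1160.3 CPM of muscle markers, and its Adipoq, the adiponectin of adipocytes, was at 17.9 CPM against at least 325 CPM in each of the others. Muscle vehicle 3 and muscle quercetin 2 held 471 and 187 CPM of Adipoq, where the other muscle libraries had 3.49 to 40.9 CPM. Muscle quercetin 2 also held 279.7 CPM of Ucp1, against at most 0.699 CPM in the other muscle libraries, and its 4 epithelial markers summed to 6948 CPM, of which 6918 CPM were Svs2, a seminal vesicle secretory protein, against 1.88 to 34.9 CPM of these markers in the others. It was the highest muscle library for 8 of the 33 genes, while muscle quercetin 3 was the highest for 9. Pfkl, Pgam1, Eno1, Pygl and Gys2 were among the 8, and the part of transcripts of another tissue in them was not tested. The 6 adipocyte markers summed to 527.7 to 36394 CPM in white fat and 15066 to 18401 CPM in brown fat. In muscle they summed to 503 to 5650 CPM. White fat vehicle 1 held the 36394 CPM, and the other white fat libraries lay below every brown fat library. The part of adipocyte transcripts in the differences between tissues was not tested. B cell markers summed to 0.981 to 2438 CPM in white fat and to at most 4.18 CPM in the other tissues. White fat vehicle 3, quercetin 1 and quercetin 3 held 905, 2438 and 425 CPM of them and were likewise not counted among the 4. In such bulk samples fewer cells of a type and less RNA per cell cannot be told apart.

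Muscle and brown fat held far more of these transcripts than white fat. The 33 genes took 2.81 to 4.58% of all gene counts in the 6 muscle libraries (median 3.89%), 1.47 to 2.56% in the 6 brown fat libraries (median 1.95%) and 0.478 to 0.730% in the 6 white fat libraries (median 0.553%). The ranges of the 3 tissues did not overlap. Between muscle and white fat 29 of the 33 genes passed an adjusted p of 0.05 in edgeR's quasi-likelihood test, 21 of them higher and 8 lower in muscle, while 50.3% of the 16388 genes tested passed, 21.7% higher and 28.6% lower. The median log2 fold change was 1.91 over the 33 genes and -0.24 over all genes tested. The 4 that did not pass were Aldoc, Pfkfb3, Pygl and Gys2. Between brown fat and white fat 25 passed, 24 of them higher and only Eno2 lower in brown fat, while 40.3% of all genes passed, 18.3% higher and 22.0% lower. Here the medians were 2.03 over the 33 genes and -0.13 over all genes. Between muscle and brown fat 20 passed, 11 of them higher and 9 lower in muscle, while 27.2% of all genes passed, 13.3% higher and 13.9% lower, with medians of 0.13 and -0.03. With the vehicle libraries alone 13 passed between muscle and brown fat, where fewer of all genes passed as well, as given further below. For genes, here and below, this setting is a contrast of the vehicle groups within the fit of all 18 libraries. Between brown and white fat Pgam2, Pygm, Eno3, Phka1, Gapdh and Gys1 then lost their calls.

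All 6 libraries of muscle lay above all 6 of white fat for 15 of the 33 genes and below for 6, against 14.3% and 9.41% of all genes tested. Brown fat lay wholly above white fat for 14 genes and wholly below for 1, against 8.19% and 4.64%. Muscle lay wholly above brown fat for 6 genes, which were Pfkm, Pfkfb4, Pygm, Gys1, Phka1 and Phkg1, and wholly below for 7, which were Hk1, Pfkl, Pfkp, Pgam1, Eno1, Pygl and Gys2, against 8.16% and 7.16%. In CPM per kilobase Aldoa, the aldolase of most tissues, led in each tissue, with 28.9% of the summed level of the 33 genes in muscle, 28.7% in brown fat and 21.0% in white fat. In muscle Eno3 followed with 16.2%, Pgam2 and Pygm with 12.1% each and Pfkm with 6.15%, so that the 5 leading genes were Aldoa and 4 muscle-type isoforms. With the length of the principal transcript in place of all exons the order was Aldoa with 36.7%, Eno3 with 12.2%, Pygm with 9.13%, Pgam2 with 8.19% and Tpi1 with 6.28%, and Pfkm came later with 4.82%. In brown fat Ldha with 10.7% and Pkm with 8.70% followed Aldoa, and in white fat Ldha with 19.1% and Pkm with 9.18%. By principal transcript length Eno1 came second in brown fat with 12.6%, before Ldha with 11.3% and Pkm with 10.03%, and in white fat, with 10.96%, came after Ldha with 19.6% and before Pkm with 10.3%.

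**Figure D1:**
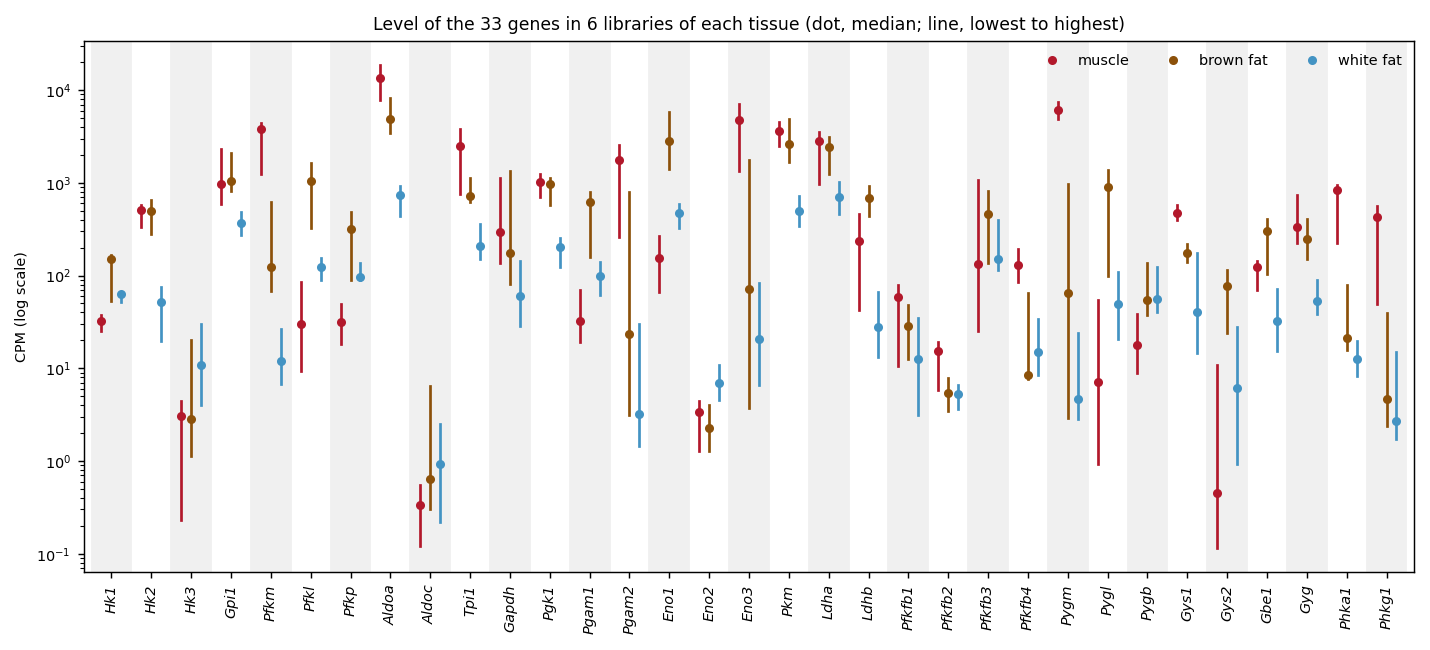
Level of each of the 33 genes in CPM on a log axis, with a dot at the median and a line from the lowest to the highest of 6 libraries in muscle, brown fat and white fat. Pfkm, Pgam2, Eno3 and Pygm have their highest median in muscle, Pfkl, Pgam1, Eno1 and Pygl in brown fat, and the lines of Pgam2, Eno3 and Pygm are long in brown fat.

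The promoters of 4 genes are shown because Pygm, Pgam2 and Eno3 were among the largest differences between muscle and white fat. Pgam1 is added as the partner of Pgam2 that was lower in muscle than in both fats. Each sequence is the RefSeq window of build GRCm38.p6 from 250 bases before to 50 bases after the annotated start of transcription, read 5′ to 3′ on the gene's strand. The windows are chr11:5803747-5804046 on the minus strand for Pgam2, chr11:70656926-70657225 on the plus strand for Eno3, chr19:6384158-6384457 on the plus strand for Pygm and chr19:41911621-41911920 on the plus strand for Pgam1. Capitals mark matches on either strand to the MEF2 motif, named for the muscle and nerve factor MEF2, to CAGCTG, an E-box that MyoD family factors are known to bind, and to ACGTG, the core that hypoxia-inducible factor is known to bind.
Pgam2: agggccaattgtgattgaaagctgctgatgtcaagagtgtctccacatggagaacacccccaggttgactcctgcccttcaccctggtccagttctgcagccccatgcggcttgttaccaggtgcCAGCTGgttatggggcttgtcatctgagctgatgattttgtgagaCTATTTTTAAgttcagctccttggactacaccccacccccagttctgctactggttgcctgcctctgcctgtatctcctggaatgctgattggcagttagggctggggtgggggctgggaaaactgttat
Eno3: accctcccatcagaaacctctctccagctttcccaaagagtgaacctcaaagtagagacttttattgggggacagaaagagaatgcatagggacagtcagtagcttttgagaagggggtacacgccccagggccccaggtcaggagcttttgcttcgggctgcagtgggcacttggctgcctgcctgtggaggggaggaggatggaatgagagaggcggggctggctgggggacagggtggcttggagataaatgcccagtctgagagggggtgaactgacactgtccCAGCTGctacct
Pygm: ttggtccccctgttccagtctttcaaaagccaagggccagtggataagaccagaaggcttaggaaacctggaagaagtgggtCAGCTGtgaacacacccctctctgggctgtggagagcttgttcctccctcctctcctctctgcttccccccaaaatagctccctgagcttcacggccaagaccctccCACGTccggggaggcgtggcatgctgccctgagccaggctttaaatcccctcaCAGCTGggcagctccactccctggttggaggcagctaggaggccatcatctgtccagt
Pgam1: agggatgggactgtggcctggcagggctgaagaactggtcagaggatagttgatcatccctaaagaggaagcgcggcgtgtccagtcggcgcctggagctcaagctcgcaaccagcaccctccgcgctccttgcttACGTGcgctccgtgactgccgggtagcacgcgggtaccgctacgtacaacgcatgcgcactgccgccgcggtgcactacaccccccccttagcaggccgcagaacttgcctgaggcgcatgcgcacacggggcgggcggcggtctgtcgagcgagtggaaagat
The MEF2 match in the Pgam2 window began at base -80 and the CAGCTG match at base -125, counted from the start of transcription. The Eno3 window held CAGCTG at base 38, downstream of the start. The Pygm window held CAGCTG in both its far and its near part and 1 ACGTG on the other strand, written there as CACGT, and the Pgam1 window held ACGTG at base -114 and no CAGCTG. Windows were found for 32 of the 33 genes, some genes having several starts, which made 49 windows. MEF2 was found in 4.08% of these 49 windows, in Pgam2 and Pfkfb1, and in 3.19% of all 32851 windows of the table. CAGCTG was found in 20.4% of the 49 and 16.3% of all windows, and ACGTG in 42.9% and 19.6%. ACGTG was held by windows of 17 of the genes, among them Aldoa, Gapdh, Hk2, Ldha, Pfkfb3, Pgam1 and Pgk1. Pfkm, with a larger difference between muscle and white fat than Eno3 (log2 fold changes of 7.94 and 7.30), is not shown. None of its windows held MEF2 or CAGCTG, and neither did that of Phkg1, while that of Phka1 held CAGCTG. A match says only that these letters are in the window.

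Hexokinase, which traps glucose in the cell, was mostly Hk2 in muscle and brown fat and a mix of 3 forms in white fat. Hk2, the insulin-responsive form of muscle and fat, ranged from 333 to 584 CPM in muscle (median 515), from 280.3 to 647 CPM in brown fat (median 498) and from 19.6 to 75.3 CPM in white fat (median 52.3). Muscle and brown fat overlapped and both lay wholly above white fat. As a share of the family's CPM per kilobase Hk2 made up 94.99 ± 0.816% in muscle, 80.6 ± 4.39% in brown fat and 39.4 ± 13.4% in white fat (SD, n = 6 each). Hk1 held 39.9 ± 12.2% in white fat. By principal transcript length Hk1 led there with 53.8 ± 12.7% against 29.8 ± 11.4% for Hk2, while Hk2 led in muscle with 91.7% and in brown fat with 70.5%. All 3 differences of the Hk2 share passed an exact permutation test at p = 0.00216, the smallest that 6 against 6 libraries allow, with an adjusted p of 0.00433 over 30 tests of shares. Hk1, the widespread form, was lower in muscle than in either fat, with a median of 32.0 CPM in muscle, 149.8 CPM in brown fat and 63.0 CPM in white fat. Hk3, a form known from blood cells, had a median of 3.08 CPM in muscle, 2.85 CPM in brown fat and 10.7 CPM in white fat, and its log2 fold change between muscle and white fat was -2.46 ± 0.74 (SE, adjusted p = 0.0125). The 4 macrophage markers, all with counts in each tissue, summed to 56.4 to 208 CPM in muscle, 49.8 to 202 CPM in brown fat and 169 to 607 CPM in white fat. The highest Hk3 of each fat, 19.96 CPM in brown fat quercetin 3 and 29.8 CPM in white fat quercetin 2, stood beside 540.5 and 423 CPM of the 4 neutrophil markers, where the remaining libraries of brown fat had 25.7 to 102.7 CPM and those of white fat 9.05 to 58.3 CPM. White fat quercetin 2 also had the 607 CPM of macrophage markers. The part of either cell type in the level of Hk3 was not tested.

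Phosphofructokinase changed its main isoform between tissues. Pfkm, the muscle form (chromosome 15, 98092589 to 98132451, plus strand, GRCm38), ranged from 1257 to 4400.3 CPM in muscle (median 3795), from 68.3 to 626 CPM in brown fat (median 125) and from 6.76 to 26.4 CPM in white fat (median 12.0). No 2 of the tissues overlapped. Its log2 fold change was 7.94 ± 0.65 between muscle and white fat (SE, adjusted p = 8.87e-07) and 4.20 ± 0.55 between muscle and brown fat (adjusted p = 0.000109). Pfkl, the liver form (chromosome 10, 77986947 to 78010083, minus strand), ranged from 9.31 to 86.2 CPM in muscle (median 29.8), from 322 to 1639 CPM in brown fat (median 1057) and from 89.7 to 155 CPM in white fat (median 124), so that the order was brown fat, white fat and muscle with no overlap. Its difference between muscle and brown fat was -4.68 ± 0.54 (adjusted p = 5.55e-05) and that between muscle and white fat -1.67 ± 0.48 (adjusted p = 0.00934). Pfkp, the platelet form, had a median of 31.3 CPM in muscle, 316 CPM in brown fat and 95.5 CPM in white fat, and its difference between muscle and white fat was -1.59 ± 0.32 (adjusted p = 0.000922).

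Of the phosphofructokinase transcripts per kilobase, Pfkm made up 99.1 ± 0.437% in muscle, 26.6 ± 25.8% in brown fat and 13.1 ± 5.89% in white fat (SD, n = 6 each). The share of Pfkl was 0.596 ± 0.375% in muscle, 62.5 ± 23.0% in brown fat and 61.3 ± 6.395% in white fat. The Pfkm share in muscle differed from that in both fats at the smallest exact p, and its difference of 13.5 points between brown and white fat did not pass (exact permutation test, adjusted p = 0.262). Brown fat quercetin 3 had a Pfkm share of 77.3% and the other 5 brown fat libraries had 7.79 to 28.4%.

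The steps with a single gene, or with 1 leading gene, split into those that did not pass between muscle and brown fat and those that were higher in muscle. Gpi1, the isomerase after hexokinase, had medians of 965 CPM in muscle, 1046 CPM in brown fat and 370.1 CPM in white fat, and its log2 fold change between muscle and brown fat was -0.08 (95% interval -0.80 to 0.64). Pgk1, the first step that yields ATP, was likewise at 1010.3, 980.4 and 202 CPM, with an interval of -0.51 to 0.60 between muscle and brown fat. Both were higher in muscle and in brown fat than in white fat. Aldoa ranged from 7801 to 18742 CPM in muscle (median 13687), from 3437 to 8226 CPM in brown fat (median 4843) and from 435 to 917 CPM in white fat (median 735). Its difference between muscle and brown fat, 1.32 ± 0.40 (SE, adjusted p = 0.0221), lost its call without muscle quercetin 3, brown fat quercetin 2 or brown fat vehicle 3, each left out alone, with the vehicle libraries alone and with the replicate number as a block. The call was also lost with no filter on low counts and within 1 flow cell. Aldoc, the brain form of aldolase, had a median under 1 CPM in each tissue and did not pass in any pair of tissues. Tpi1, which interconverts the triose phosphates, was higher in muscle than in brown fat by 1.58 ± 0.35 (SE, adjusted p = 0.00375) and higher in brown fat than in white fat by 1.82 ± 0.35 (adjusted p = 0.0011).

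Gapdh, often used as a constant control, ranged from 135 to 1136 CPM in muscle (median 294), from 81.4 to 1348 CPM in brown fat (median 175) and from 28.2 to 143 CPM in white fat (median 60.2). The ranges of the 3 tissues overlapped. In the annotation 81 other genes, 77 of them pseudogenes, matched its exons at 95% identity or more, and these other genes held 74543 counts in the 18 libraries against 51261 for Gapdh itself. The level of Gapdh is uncertain for this reason, as reads may be shared with these copies.

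Phosphoglycerate mutase was mostly Pgam2 in muscle and mostly Pgam1 in both fats. Pgam2, the muscle form (chromosome 11, 5801640 to 5803733, minus strand), ranged from 258 to 2563 CPM in muscle (median 1743), from 3.14 to 800.0 CPM in brown fat (median 23.4) and from 1.46 to 30.1 CPM in white fat (median 3.20). Its log2 fold change between muscle and white fat was 8.26 ± 1.24 (SE, adjusted p = 0.000118). Pgam1, the general form (chromosome 19, 41911923 to 41918660, plus strand), was instead lower in muscle than in both fats. It was at 19.1 to 70.4 CPM in muscle, 157 to 805 CPM in brown fat and 62.2 to 139.6 CPM in white fat. Muscle lay wholly below brown fat for Pgam1, with a difference of -3.85 ± 0.43 (adjusted p = 4.71e-05), and overlapped white fat. The Pgam2 share was 98.6 ± 1.03% in muscle, 20.3 ± 35.5% in brown fat with a median of 7.61%, and 13.03 ± 14.3% in white fat with a median of 9.33% (SD, n = 6 each). Between brown and white fat Pgam2 was higher by 3.80 ± 1.02 (adjusted p = 0.00862). Brown fat quercetin 3 held the 800.0 CPM of Pgam2, and without it the difference was 1.62 with an adjusted p of 0.0692.

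Enolase followed the same order of tissues. Eno3, the muscle form (chromosome 11, 70657202 to 70662513, plus strand), ranged from 1354 to 7059 CPM in muscle (median 4787), from 3.74 to 1784.5 CPM in brown fat (median 71.5) and from 6.57 to 83.2 CPM in white fat (median 20.6). Its log2 fold change was 7.30 ± 1.21 between muscle and white fat (SE, adjusted p = 0.000234) and 4.53 ± 1.06 between muscle and brown fat (adjusted p = 0.00552), the second being 6.64 without brown fat quercetin 3. Eno1, the general form (chromosome 4, 150236721 to 150248879, plus strand), ranged from 66.6 to 268 CPM in muscle (median 157), from 1418 to 5816 CPM in brown fat (median 2831) and from 327 to 594 CPM in white fat (median 473). The 3 tissues did not overlap, and Eno1 was lower in muscle than in brown fat by -4.26 ± 0.43 (adjusted p = 2.89e-05). The Eno3 share was 98.7 ± 0.550% in muscle, 17.7 ± 30.1% in brown fat and 15.8 ± 11.4% in white fat (SD, n = 6 each), and the difference of 1.99 points between brown and white fat did not pass (exact permutation test, adjusted p = 0.961). Eno2, the nerve form, ranged from 1.28 to 4.46 CPM in muscle (median 3.35), from 1.27 to 3.97 CPM in brown fat (median 2.26) and from 4.59 to 10.9 CPM in white fat (median 7.01). White fat lay wholly above both other tissues for Eno2, and the difference between brown and white fat was -1.64 ± 0.35 (adjusted p = 0.00199).

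**Figure D2:**
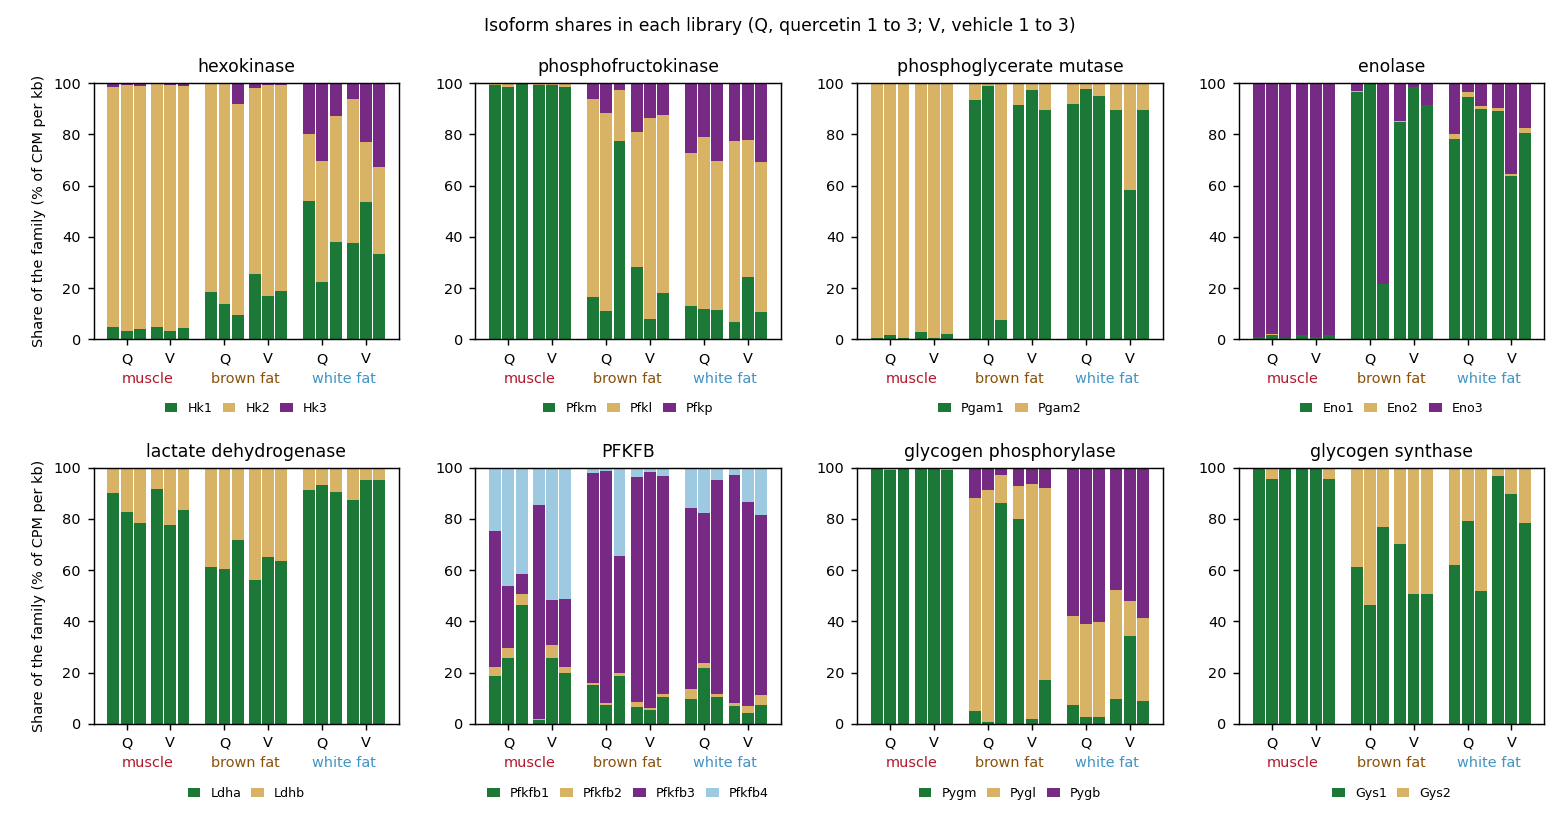
Share of each isoform in the summed CPM per kilobase of its family, in percent, as 1 stacked bar per library, with quercetin 1 to 3 left of vehicle 1 to 3 in each tissue and 1 panel for each of 8 enzyme families. Pfkm, Pgam2, Eno3, Pygm and Gys1 fill nearly the whole bar in muscle, and brown fat quercetin 3 differs from the other brown fat bars with Pgam2 at 92.3% and Eno3 at 78.2%.

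At the end of the pathway Pkm and Ldha did not pass between muscle and brown fat, while the Ldha share was lowest in brown fat. Pkm, the pyruvate kinase of these tissues, had medians of 3592 CPM in muscle, 2611 CPM in brown fat and 493 CPM in white fat, with a 95% interval of -0.39 to 0.99 for the log2 fold change between muscle and brown fat. Counts per gene do not separate its splice forms M1 and M2. Ldha, the subunit that favours lactate formation, had medians of 2812, 2449.9 and 702 CPM in muscle, brown fat and white fat, with an interval of -0.62 to 0.88 between muscle and brown fat. Ldhb, the heart-type subunit, ranged from 42.1 to 465 CPM in muscle (median 236), from 439 to 928 CPM in brown fat (median 679.6) and from 13.2 to 66.6 CPM in white fat (median 28.2). Brown fat lay wholly above white fat for Ldhb, by 4.35 ± 0.58 (SE, adjusted p = 8.52e-05), and the difference between muscle and brown fat did not pass (-1.30 ± 0.52, adjusted p = 0.0751). The Ldha share was 84.0 ± 5.76% in muscle, 63.1 ± 5.21% in brown fat and 92.1 ± 2.99% in white fat (SD, n = 6 each), and all 3 differences passed the exact permutation test. Brown fat was thus the tissue with the largest Ldhb share, 36.9 ± 5.21%. The Ldha share lost its call between muscle and white fat without white fat vehicle 2 or vehicle 3, each left out alone (adjusted p = 0.052 each). Without the 4 libraries named above its adjusted p in that pair was 0.166.

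The share of Pfkfb3 among the PFKFB enzymes was lower in muscle than in both fats. In muscle Pfkfb4 held 38.4 ± 15.2% of the family, Pfkfb3 35.4 ± 27.9% and Pfkfb1 23.0 ± 14.4%, while Pfkfb3, the form known for strong kinase activity, held 80.5 ± 17.4% in brown fat and 75.3 ± 10.97% in white fat (SD, n = 6 each). The order in muscle turned with the length used, since by principal transcript length Pfkfb3 held 34.7 ± 28.3%, Pfkfb4 32.6 ± 12.9% and Pfkfb1 29.5 ± 17.5% there, so that Pfkfb3 had the highest mean share in each tissue. The Pfkfb3 share was lower in muscle than in brown fat by 45.1 points (exact permutation test, adjusted p = 0.026) and than in white fat by 39.9 points (adjusted p = 0.0253). Both calls were lost without the 4 libraries named above, with adjusted p of 0.0529 and 0.13. Pfkfb3 itself did not pass in any pair of tissues, with medians of 132 CPM in muscle, 459 CPM in brown fat and 152 CPM in white fat. Pfkfb4 ranged from 85.2 to 193 CPM in muscle, from 7.69 to 65.2 CPM in brown fat and from 8.504 to 33.9 CPM in white fat, and muscle lay wholly above both fats. Its log2 fold change was 2.995 ± 0.49 between muscle and brown fat (SE, adjusted p = 0.000568). Pfkfb1, known from liver and muscle, was higher in muscle than in white fat by 1.91 ± 0.47 (adjusted p = 0.00367) and did not pass in the other pairs. Pfkfb2, the heart form, held 3.21 ± 1.59% of the family in muscle, the lowest of the 4 shares, and was higher there than in brown fat by 1.33 ± 0.30 (adjusted p = 0.00466).

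Glycogen phosphorylase was nearly all Pygm in muscle and a mix of forms in both fats. Pygm, the muscle form that is missing in McArdle disease (chromosome 19, 6384399 to 6398459, plus strand), ranged from 4852 to 7538 CPM in muscle (median 6077), from 2.93 to 967 CPM in brown fat (median 64.3) and from 2.85 to 24.2 CPM in white fat (median 4.65). Its log2 fold change of 9.90 ± 1.36 between muscle and white fat (SE, adjusted p = 5.95e-05) was the largest of the 33 genes. Between muscle and brown fat it was 4.91 ± 1.09 (adjusted p = 0.00394), and 6.91 without brown fat quercetin 3. Between brown and white fat it was 4.99 ± 1.10 (adjusted p = 0.00261), and 2.99 without that library (adjusted p = 0.00721). Pygl, the liver form (chromosome 12, 70190811 to 70231488, minus strand), ranged from 0.931 to 54.4 CPM in muscle (median 7.15), from 100.1 to 1382 CPM in brown fat (median 901) and from 20.8 to 110.3 CPM in white fat (median 49.5). Brown fat lay wholly above muscle for Pygl. The difference was -5.39 ± 0.93 between muscle and brown fat (adjusted p = 0.000785) and 3.80 ± 0.86 between brown and white fat (adjusted p = 0.00319). The highest muscle values of Pygl, 54.4 and 36.4 CPM, were those of quercetin 2 and vehicle 3, and without the 4 libraries named above the difference between muscle and brown fat was -7.66. Pygb, the brain form, ranged from 8.85 to 38.5 CPM in muscle (median 17.8), from 37.4 to 135 CPM in brown fat (median 54.6) and from 40.0 to 124 CPM in white fat (median 55.4).

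Of the phosphorylase transcripts per kilobase Pygm made up 99.6 ± 0.345% in muscle, Pygl 60.8 ± 38.3% in brown fat and Pygb 56.3 ± 5.14% in white fat (SD, n = 6 each). By principal transcript length Pygl led in both fats, with 69.0 ± 35.9% in brown fat and 48.8 ± 12.4% in white fat, where Pygb held 43.0 ± 4.69%. The Pygm share of brown fat ranged from 0.603 to 86.3% around a median of 10.96%, and it was 86.3% in quercetin 3 and 79.9% in vehicle 1. These were also the 2 brown fat libraries with the most muscle marker transcripts, at 33219 and 5710.3 CPM, and the part of those transcripts in the Pygm share was not tested. In white fat the Pygm share was 10.9 ± 11.8%. Pygb was lower in muscle than in white fat by -1.62 ± 0.36 (SE, adjusted p = 0.00209), and its difference between brown and white fat did not pass (-0.06 ± 0.36, adjusted p = 0.905).

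Glycogen synthase was almost all Gys1 in muscle and a mix of Gys1 and Gys2 in both fats. Gys1, the general form, ranged from 398 to 574 CPM in muscle (median 469.8), from 139.6 to 219.6 CPM in brown fat (median 175) and from 14.7 to 175 CPM in white fat (median 40.3). The Gys1 difference between muscle and brown fat (1.45 ± 0.47, SE, adjusted p = 0.0336) lost its call with DESeq2 and with the vehicle libraries alone. It was also lost without muscle vehicle 1 or 2, muscle quercetin 1 or 3, or any brown fat library but vehicle 1, each left out alone. Muscle lay wholly above brown fat for Gys1. The SE rests on 1 dispersion (spread) estimate shared by all 6 groups, white fat included, so it is not the spread of muscle and brown fat alone. Gys2, the liver form (chromosome 6, 142422613 to 142473109, minus strand), ranged from 0.116 to 10.8 CPM in muscle (median 0.453), from 24.2 to 116 CPM in brown fat (median 76.3) and from 0.918 to 28.2 CPM in white fat (median 6.12). Its log2 fold change between muscle and brown fat was -4.28 ± 0.997 (SE, adjusted p = 0.00531), and -8.42 without the 4 libraries, since the muscle values of 10.8 and 9.93 CPM came from quercetin 2 and vehicle 3. The Gys1 share was 98.5 ± 2.17% in muscle, 59.3 ± 12.2% in brown fat and 76.2 ± 16.8% in white fat (SD, n = 6 each). It was higher in muscle than in brown fat by 39.2 points and than in white fat by 22.3 points (exact permutation test, adjusted p = 0.00433 and 0.0115).

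The remaining glycogen genes were of 2 kinds. Gbe1, which makes the branches, was highest in brown fat with medians of 124 CPM in muscle, 303 CPM in brown fat and 32.6 CPM in white fat. Gyg, glycogenin, which primes a new glycogen particle, did not pass between muscle and brown fat (0.59 ± 0.30, SE, adjusted p = 0.158) and was higher in both than in white fat. Phka1 and Phkg1, the regulatory and the catalytic subunit of muscle phosphorylase kinase, were muscle genes here. Phka1 ranged from 227 to 949.95 CPM in muscle (median 839.6), from 15.9 to 78.7 CPM in brown fat (median 21.3) and from 8.27 to 19.7 CPM in white fat (median 12.5). Phkg1 ranged from 49.8 to 565 CPM in muscle (median 428), from 2.41 to 39.5 CPM in brown fat (median 4.70) and from 1.75 to 14.8 CPM in white fat (median 2.71). Both lay wholly above the fats in muscle, with log2 fold changes between muscle and brown fat of 4.60 ± 0.47 for Phka1 (SE, adjusted p = 2.89e-05) and 5.27 ± 0.81 for Phkg1 (adjusted p = 0.000349). Parts of the Phkg1 exons, at most 193 bp long, match 17 other genes at 95% identity or more, and 9.68% of its exon bases overlap Sumf2. The 17 matching genes held 158477 counts in the 18 libraries against 20845 for Phkg1. Its level is uncertain to the extent that reads are shared with them, which was not tested.

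Shares of 10 isoforms were compared in 3 pairs of tissues each, and 21 of the 30 exact permutation tests passed, 15 of them at the smallest p. The 9 that did not pass were Pfkm, Pgam2, Eno3, Pygm, Gys1, Pfkfb3 and Pfkfb1 between brown and white fat and Pfkfb1 in both other pairs. The mean Aldoa share was 99.8% or more in each tissue.

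Genes around these enzymes, a list of 60 chosen for the pathway, changed in the same tissue pairs. Of 53 that could be tested 40 passed between muscle and white fat, 32 higher and 8 lower in muscle, where 50.3% of all genes did, 21.7% higher and 28.6% lower. Between muscle and brown fat 36 passed, 17 higher and 19 lower in muscle, where 27.2% of all genes did, 13.3% higher and 13.9% lower. Between brown and white fat 34 passed, 30 higher and 4 lower in brown fat, where 40.3% of all genes did, 18.3% higher and 22.0% lower. Ppp1r3a, which brings protein phosphatase 1 to glycogen in muscle, was higher in muscle than in white fat by 8.64 ± 1.48 on the log2 scale (SE, adjusted p = 0.000305) and than in brown fat by 4.91 ± 1.24 (adjusted p = 0.0084). Ppp1r3b, the liver counterpart, was lower in muscle than in brown fat by -6.12 ± 0.93 (adjusted p = 0.000326) and higher in brown fat than in white fat by 5.27 ± 0.89 (adjusted p = 0.000463). Ppp1r3c, a further member of that family, was higher in muscle than in white fat by 6.33 ± 0.80 (adjusted p = 3.51e-05). Fbp2, the muscle fructose bisphosphatase, was higher than in white fat both in muscle, by 6.68 ± 0.53 (adjusted p = 7.11e-07), and in brown fat, by 6.51 ± 0.53 (adjusted p = 5.35e-06). Pck1, which feeds glycerol and glucose synthesis, was lower in muscle than in brown fat by -4.67 ± 1.36 (adjusted p = 0.0192).

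Quercetin was compared with vehicle within each tissue, where fold changes come from a fit of its 6 libraries and levels from the scaling of all 18. No gene of the 33 passed the adjusted threshold in any tissue, and neither did any other gene in edgeR's test, so that 0% of the genes tested were called. DESeq2, fitted as an alternative, called 4 genes in muscle, 3 in brown fat and 6 in white fat, and 0 of the 33. At an unadjusted p under 0.05, edgeR's test gave 0 of 31 genes in muscle, 2 of 32 in brown fat and 3 of 33 in white fat, against 2.99%, 1.82% and 0.818% of all genes. Aldoc and Gys2 in muscle and Aldoc in brown fat had too few counts to be tested. The estimate was higher with quercetin for 23 of 31 genes in muscle, 26 of 32 in brown fat and 20 of 33 in white fat, against 47.0%, 54.9% and 48.5% of all genes tested. The median log2 fold changes were 0.25, 0.34 and 0.16, against -0.03, 0.05 and -0.01 over all genes. These medians moved with single libraries left out. In muscle they ran from 0.11 without vehicle 1 to 0.45 without vehicle 3. In brown fat they ran from 0.05 without quercetin 1 to 0.51 without vehicle 2, and in white fat from -0.11 without quercetin 2 to 0.32 without vehicle 1. Muscle vehicle 1 was the lowest of the 6 muscle libraries for 23 of the 33 genes.

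In muscle the unadjusted p was smallest for Pfkfb4, Eno2, Pfkfb3 and Phkg1, none of which passed (adjusted p = 0.91 each, edgeR). Pfkfb4 was at 85.2, 137 and 86.0 CPM in quercetin muscle, against 121, 137 and 193 CPM in vehicle muscle, with a log2 fold change of -0.59 ± 0.33 (SE). The highest quercetin library lay within the vehicle range. Eno2 was at 3.66, 4.46 and 3.48 CPM in quercetin muscle, against 1.28, 1.80 and 3.23 CPM in vehicle muscle, with a log2 fold change of 0.82 ± 0.49. Phkg1 was at 565, 449 and 457 CPM in quercetin muscle, against 49.8, 407 and 306 CPM in vehicle muscle, with a log2 fold change of 0.92 ± 0.64 and 0.43 without vehicle 1. For Eno2 and Phkg1 the groups did not overlap and quercetin was higher, as for 5.85% of all genes tested in muscle, and 0 of the 33 genes lay wholly lower, as did 3.40% of all genes. Pfkfb3 was at 281, 111 and 25.1 CPM in quercetin muscle, against 1064, 73.3 and 154 CPM in vehicle muscle. The groups overlapped, and the log2 fold change of -1.69 ± 1.11 turned to 0.27 without vehicle 1.

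The muscle-type isoforms themselves did not pass between the arms in muscle. Pfkm was at 3876, 3714 and 4400.3 CPM in quercetin muscle, against 1257, 4065 and 2575 CPM in vehicle muscle, with a log2 fold change of 0.57 (95% interval -0.49 to 1.63). Pygm was at 7538, 5622 and 7466 CPM in quercetin muscle, against 6377, 5777 and 4852 CPM in vehicle muscle, with a log2 fold change of 0.24 (95% interval -0.59 to 1.06). Both intervals include 0 and also a log2 fold change of 1. The Pfkm share was 99.2 ± 0.463% in quercetin muscle and 99.1 ± 0.509% in vehicle muscle, and the Pygm share 99.6 ± 0.349% and 99.6 ± 0.418% (SD, n = 3 each). With 3 against 3 libraries an exact permutation test of a share cannot give a p below 0.1, so that no share was called between the arms.

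In brown fat the 4 smallest unadjusted p were those of Pfkfb1, Gapdh, Pgam2 and Pfkm, none of which passed (adjusted p = 0.977 each, edgeR). Pfkfb1 was at 47.9, 35.1 and 29.1 CPM in quercetin brown fat, against 12.6, 19.8 and 27.8 CPM in vehicle brown fat, with a log2 fold change of 0.90 ± 0.34 (SE). Its groups did not overlap, as for 2.87% of all genes tested with quercetin higher, and 0 of the 33 genes lay wholly lower, as did 3.32% of all genes. Gapdh was at 495, 81.4 and 1348 CPM in quercetin brown fat, against 101, 199.8 and 149 CPM in vehicle brown fat. Pgam2 was at 23.9, 3.14 and 800.0 CPM in quercetin brown fat, against 22.9, 7.51 and 28.0 CPM in vehicle brown fat, and Pfkm at 174, 79.6 and 626 CPM against 114, 68.3 and 135 CPM. In these 3 genes quercetin 3 was the highest of the 6 libraries and quercetin 2 lay below the vehicle median. The log2 fold changes were 2.14 ± 0.90 for Gapdh, 3.91 ± 1.77 for Pgam2 and 1.53 ± 0.76 for Pfkm, and 0.90, -0.58 and 0.23 without quercetin 3.

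In white fat the 4 smallest unadjusted p were those of Gys2, Pgam2, Pygb and Pygl, none of which passed (adjusted p = 0.9998 each, edgeR). Gys2 was at 8.98, 8.76 and 28.2 CPM in quercetin white fat, against 3.49, 0.918 and 3.13 CPM in vehicle white fat, with a log2 fold change of 2.57 ± 0.77 (SE). Pygb was at 55.4, 98.5 and 124 CPM in quercetin white fat, against 40.0, 55.4 and 44.9 CPM in vehicle white fat, with a log2 fold change of 0.99 ± 0.37. Its lowest quercetin and highest vehicle libraries differed by less than 1 CPM. Pygl was at 47.7, 84.6 and 110.3 CPM in quercetin white fat, against 51.2, 20.8 and 35.6 CPM in vehicle white fat, with a log2 fold change of 1.15 ± 0.49. Pgam2 was at 2.38, 1.46 and 2.53 CPM in quercetin white fat, against 5.02, 30.1 and 3.87 CPM in vehicle white fat, with a log2 fold change of -2.58 ± 0.88 and -1.11 without vehicle 2. The groups did not overlap for Gys2 and Pygb, with quercetin higher, and for Pgam2, with quercetin lower, as for 2.61% and 1.83% of all genes tested. B cell markers summed to 2.55 to 2438 CPM in quercetin white fat and 0.981 to 2074 CPM in vehicle white fat, and their part in these levels was not tested.

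**Figure D3:**
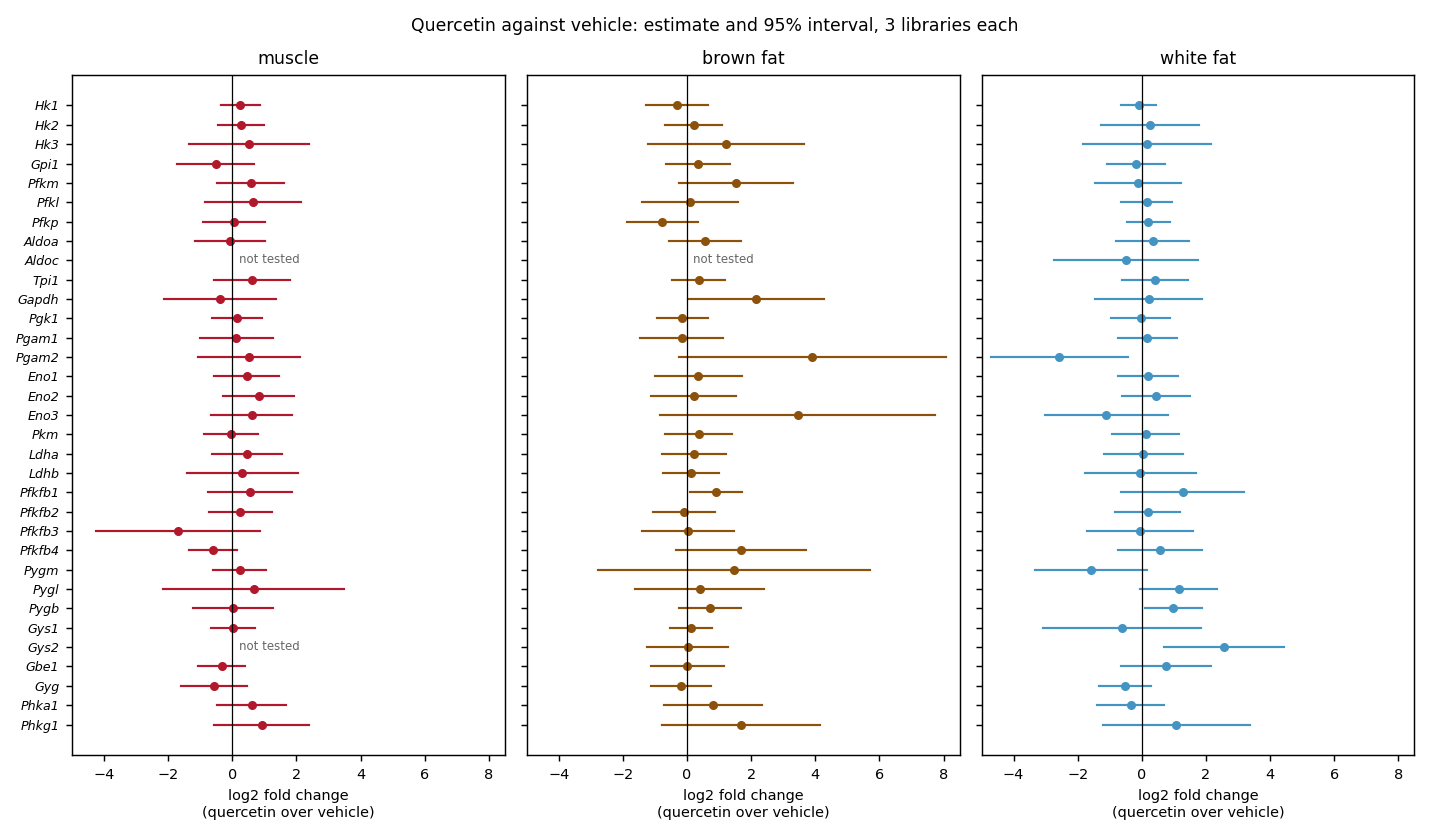
Log2 fold change of quercetin over vehicle for each of the 33 genes in muscle, brown fat and white fat, with the point at the estimate and the line over its unadjusted 95% interval from 3 libraries in each arm. Most lines cross 0, the longest are those of Pgam2, Eno3 and Pygm in brown fat, and Gys2 and Pgam2 in white fat lie on opposite sides of 0.

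Whether quercetin acted unequally in 2 tissues was tested in the fit of all 18 libraries, and 0 of the 33 genes and 0% of all genes passed for any pair of tissues. At an unadjusted p under 0.05 stood 1 gene between muscle and brown fat, 2 between brown and white fat and 0 between muscle and white fat, against 1.36%, 1.06% and 1.41% of all genes (edgeR), and DESeq2 called 0 of the 33. The gene between muscle and brown fat was Pfkfb4, with a difference of log2 fold changes of -2.17 ± 0.93 (SE). Those between brown and white fat were Pgam2, at 6.43 ± 1.99, and Eno3, at 4.48 ± 1.93. These differences rested on single libraries. Without brown fat quercetin 3 they were 2.07 for Pgam2, 0.27 for Eno3 and -0.44 for Pfkfb4. Without white fat vehicle 2 they were 4.97 for Pgam2 and 3.55 for Eno3, and without the 4 libraries that stood apart 0.52 for Pgam2, -0.74 for Eno3 and -0.48 for Pfkfb4. For the quercetin contrasts of the 60 listed genes around the pathway 0 passed in any tissue.

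Within each fat Pfkm, Pgam2, Eno3 and Pygm were highest in the library with the most muscle transcripts. In brown fat Eno3 was at 62.8, 3.74 and 1784.5 CPM in quercetin libraries 1 to 3, against 80.3, 17.6 and 81.7 CPM in vehicle libraries 1 to 3. Acta1, the skeletal muscle actin, was at 215, 1.32 and 9149 CPM in the same quercetin libraries, against 1469, 61.4 and 411 CPM in the vehicle ones. Quercetin 2 was the lowest and quercetin 3 the highest library for both. Pygm was at 38.7, 2.93 and 967 CPM in quercetin brown fat, against 286, 9.97 and 89.9 CPM in vehicle brown fat, which is the order of Acta1 over the 6 libraries. Pfkm was at 79.6 CPM in brown fat quercetin 2, where Acta1 was at 1.32 CPM and the 8 muscle markers summed to 5.87 CPM. That Pfkm level, from 1 library, was above the highest white fat library, which had 26.4 CPM. The part of muscle transcripts in the levels of Pfkm, Pgam2, Eno3 and Pygm in the fats was not tested. In white fat vehicle 2, with 258 CPM of Acta1, Pfkm, Pgam2, Eno3 and Pygm were at 26.4, 30.1, 83.2 and 24.2 CPM, and each was the highest of the 6 white fat libraries. Phka1 and Phkg1 were not, at 15.1 and 2.59 CPM there, against 19.7 CPM of Phka1 in vehicle 1 and 14.8 CPM of Phkg1 in quercetin 2. Without brown fat quercetin 3 the difference between brown and white fat stayed past the threshold for Pfkm (3.14, adjusted p = 0.000122) and Pygm and lost its call for Pgam2, Eno3 (0.66, adjusted p = 0.469), Phka1 (0.63, adjusted p = 0.137) and Gapdh (1.45, adjusted p = 0.0748). The calls of Eno3, Phka1 and Gapdh were also lost without white fat vehicle 3 or without white fat quercetin 3, and those of Eno3 and Phka1 without white fat quercetin 2, brown fat vehicle 1 or brown fat vehicle 3. The call of Eno3 alone was lost without white fat vehicle 1, and that of Phka1 alone without white fat vehicle 2.

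**Figure D4:**
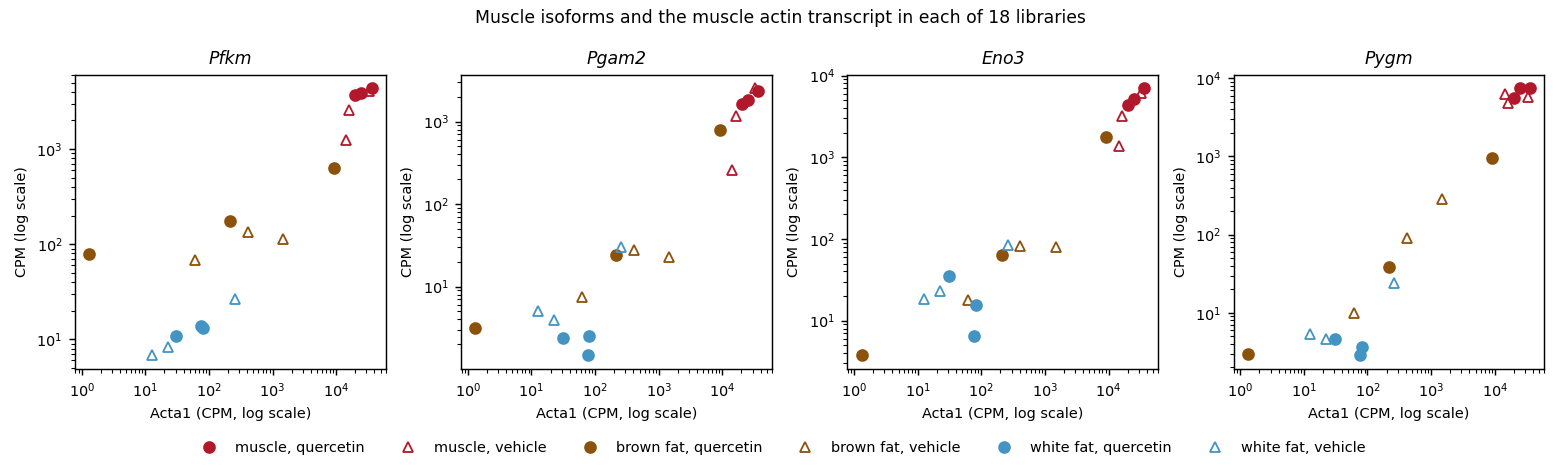
Level of Pfkm, Pgam2, Eno3 and Pygm against that of Acta1, the skeletal muscle actin, in CPM on log axes, with 1 point for each of the 18 libraries, filled for quercetin and open for vehicle. Brown fat quercetin 3 lies nearest to the muscle libraries in each panel, and brown fat quercetin 2, with the lowest Acta1, holds 79.6 CPM of Pfkm and 3.14 CPM of Pgam2.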

How the data were processed

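Skeletal muscle, brown fat and white fat RNA was sequenced in 18 libraries, 3 per tissue and arm. Per the labels' protocols, TRIzol was used for extraction and libraries were made with the NEBNext Ultra kit; the submitters' processing notes name HISAT2, HTSeq, DESeq2 and build mm10, with versions not given in the sources used here. The authors deposited raw read counts per Ensembl gene for each library. Of the lines outside genes, reads with no feature came to 2.53 to 9.11% and ambiguous reads to 6.47 to 9.84%, and both stayed out of library sizes. Symbols, coordinates and lengths came from GENCODE M21 (GRCm38).

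Counts were tested with edgeR 4.0.16 (R 4.3.3), using TMM scaling, a minimum count of 10 (total 15), the quasi-likelihood F test and Benjamini-Hochberg adjustment over all genes tested, with a threshold of 0.05. Quercetin was tested in each tissue's 6 libraries. Tissues, averaged over arms, and interactions were tested in 1 fit of 18, where all 6 groups shared 1 dispersion (spread) estimate per gene. Isoform shares are percent of a family's CPM per kilobase of exon union, compared by two-sided exact permutation over 924 arrangements (scipy 1.17.1). Near-copies were found with BLAST 2.17.0. The fits were tested on simulated data. The alternatives were DESeq2 1.42.0, RLE scaling, no filter, 1 flow cell (15 of 18 libraries shared it), vehicle libraries only, a replicate block, other length scales and left-out libraries. The length of the principal transcript, the joint omission of 2 muscle libraries, and the block and the joint omission of 4 libraries for interactions were chosen after seeing the data.

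Genes named were the 4 largest called changes in each direction per tissue pair and the 4 smallest unadjusted p per tissue for quercetin; for the surrounding list they were the 3 largest called changes per tissue pair, 1 of which is not reported here. The members and lists were chosen with earlier results of these data known. Nothing in the labels says which libraries come from separate animals, so p-values measure only the spread between libraries. No 2 replicates agreed within sampling noise.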

Additional observations from a re-analysis of the deposited data

Results flagged for a closer look

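In 90 sets of 6 libraries, 26 had 1 library whose gap to the nearest of the others exceeded 0.625 of the whole range, where chance gives about 1 in 20 sets. That rate holds for independent sets, while these share libraries and the genes were chosen with results of these libraries known, so it is no baseline for the 26. Brown fat quercetin 3 made up 13 of them. Its share of Pfkm was 77.3%, of Pgam2 92.3%, of Eno3 78.2% and of Pfkfb3 45.8%, the last being below the other 5 libraries and the rest above. Its levels were 1784 CPM of Eno3, 1348 CPM of Gapdh, 19.96 CPM of Hk3, 65.2 CPM of Pfkfb4, 626 CPM of Pfkm, 800.0 CPM of Pgam2, 78.7 CPM of Phka1, 39.5 CPM of Phkg1 and 967 CPM of Pygm, each above the other 5. Its 8 muscle markers summed to 33219 CPM and its 4 neutrophil markers to 540.5 CPM, against 25.7 to 102.7 CPM of the second in the other 5, and the part of either in these levels was not tested.

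White fat vehicle 2 stood above the other 5 white fat libraries with shares of 24.3% for Pfkm, 41.5% for Pgam2 and 34.1% for Pygm, and with levels of 83.2 CPM of Eno3, 26.4 CPM of Pfkm, 30.1 CPM of Pgam2 and 24.2 CPM of Pygm. Its muscle markers summed to 1160.3 CPM, and their part was not tested. White fat quercetin 2 stood above the others with a Pfkfb1 share of 21.8% and 14.8 CPM of Phkg1, and white fat quercetin 3 with 28.2 CPM of Gys2 and 137.7 CPM of Pfkp. Muscle vehicle 1 stood above the other muscle libraries with 1064 CPM of Pfkfb3, where they had 25.1 to 281 CPM. Brown fat quercetin 1 stood above the other brown fat libraries with 135 CPM of Pygb.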

How the results depend on the processing

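Leaving out 1 library at a time gave 29 to 31 of the 33 genes past the threshold between muscle and white fat, 18 to 21 between muscle and brown fat and 22 to 26 between brown and white fat, against 7194 to 8843, 3463 to 5097 and 5383 to 7917 of all genes. For quercetin it gave 0 to 1 genes in brown fat, the 1 being without brown fat quercetin 3, and 0 in muscle, in white fat and for the interactions. Without a filter on low counts 32 genes passed for quercetin in muscle. DESeq2 called 4 genes for quercetin in muscle, 3 in brown fat and 6 in white fat, and 7, 2 and 4 for the interactions of muscle with white fat, muscle with brown fat and brown with white fat. With the vehicle libraries only, 5076, 1689 and 3106 genes passed in those pairs of tissues, 13 of the 33 passed between muscle and brown fat, and 0 isoform shares passed, since 3 against 3 libraries cannot reach the threshold. Of the 30 share tests 19 to 23 passed with 1 library left out and 17 without the 4 libraries that stood apart.

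The difference in Pgam2 share between brown and white fat turned to -1.45 points without the 4 libraries, -13.6 with vehicle only and -7.15 without brown fat quercetin 3. That in Eno3 share turned to -6.14, -12.7 and -10.1 under the same settings and to -0.51 without white fat quercetin 2, within -10.1 to 5.95 with 1 library left out. That in Pfkfb1 share turned to -2.33 without the 4 libraries and lay between -1.13 and 2.82 with 1 library left out, being below 0 without white fat vehicle 1, 2 or 3 or brown fat quercetin 1 or 3. The quercetin fold change of Pfkfb3 in muscle ranged from -2.74 to 0.27 and that of Pgam2 in brown fat from -0.58 to 4.48 with 1 library left out. The cause was not tested. The alternatives for single values were counted only for the isoform shares and for the genes named by the rule above, each in its own contrast. The calls that other genes lost, such as Gys1 and Aldoa between muscle and brown fat, are outside these counts. Among the values counted, 142 quercetin values, 518 tissue values and 607 shares kept their direction and their side of the threshold. In the same direction 7 tissue values and 36 shares no longer passed and 4 shares newly passed, and 2 quercetin values and 13 shares reversed, as given above.

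With the replicate number as a block, 30, 19 and 23 of the 33 genes passed in the 3 pairs of tissues, Aldoa losing its call between muscle and brown fat and Eno3 and Phka1 between brown and white fat, and 0 passed for quercetin. The counts over all genes with the block are not set beside these, so they show only how far the calls held. The labels do not say that a number marks 1 animal. Deviations of libraries with the same number correlated at -0.136 to 0.298 across tissues, with 11 of 18 pairs over 0.1, which were 8 of 9 in the vehicle arm and 3 of 9 in the quercetin arm, and at -0.699 to 0.266 across arms, with 2 of 9 pairs over 0.1. A library's best match was its own number in 12 of 18 cases across tissues.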
